A study of Mus musculus with 30 samples.

Results

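The sites described here are the 8867 entries of the deposited ATF3 footprint table that lie in a promoter peak, out of 20364 entries in all. They were chosen by position alone: a site was kept where it overlapped an accessible region that the deposited peak annotation places at a promoter. They fall in 6221 of the 39399 promoter peaks and belong to 5558 genes, of which 3741 have RNA counts. Another 11348 entries lie in peaks outside promoters and 149 in no counted peak. The cells were mouse retinal ganglion cells (RGCs), the neurons that send their axons through the optic nerve, sorted by fluorescence from C57BL/6 mice before (day 0, no crush) and after a crush of the optic nerve. ATAC-seq, which maps open chromatin by the insertions of a transposase, has 6 libraries of day 0, 3 of day 1 and 6 of day 3. The footprint scores and the authors' comparisons of days are headed nonTarget, a condition that the sample titles do not name. RNA-seq has counts for 3 libraries of day 0, 3 of day 1, 2 of day 2, 3 of day 3 and 2 of day 4, and the strain labels of day 0 RNA replicates 2 and 3 read C57BL/7 and C57BL/8. The labels do not say whether replicates are separate animals. The p-values here set a difference between days against the spread among libraries, and that spread may be technical.

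ATF3 is a basic leucine zipper (bZIP) factor, low in healthy neurons and known to be induced in neurons whose axons are cut. It binds DNA as a dimer, alone or with partners of the JUN, ATF and CEBP groups, at the cAMP response element (CRE), whose full palindrome reads TGACGTCA, and at the AP-1 element, which reads TGANTCA. A footprint is a dip of transposase insertions over a motif in open chromatin. Footprint scores generally weigh that dip against the openness around it, and since bZIP factors share their motifs they do not say which of them sat on the DNA.

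The letters of 1063 member sites could be read from RefSeq promoter windows (build GRCm38.p6, 250 bases before to 50 bases after a start). The sites come in 3 main lengths, whose letters differ in part. The following 30-base stretches, on the plus strand of the genome with the listed site in capitals, show a CRE at the first Creb5 promoter (chr6:53287247-53287276), its close neighbour without those letters (chr6:53287264-53287293), an AP-1 element at the second Creb5 promoter (chr6:53573318-53573347), the CRE-like site of Fos (chr12:85473813-85473842), the AP-1 site of Hspa5 (chr2:34771897-34771926) and the E-box sites of Klf6 (chr13:5861434-5861463) and Atf1 (chr15:100227743-100227772).
Creb5, CRE palindrome: ggaatcccaCGTGACGTCACCgggggggtg
Creb5, neighbouring site: caccgggggGGTGATGTAATgcactctaaa
Creb5, AP-1 element: tgggaaggatATGACTCACtcaagctagtt
Fos, CRE-like: gttccgcccAGTGACGTAGGaagtccatcc
Hspa5, AP-1 element: ccagtagccaATGAGTCAGcccggggggcg
Klf6, E-box: ctccaagctGGTCACGTGGGgggagaaggg
Atf1, E-box: atggcggcgCTCACGTGACCacgcggtgac

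Of the 245 readable sites of 9 bases, 176 (71.8%) held TGANTCA and none held TGACG. Of the 332 readable sites of 12 bases, 172 (51.8%) held the palindrome TGACGTCA and 252 (75.9%) held its shorter form TGACG. Of the 472 readable sites of 11 bases, 165 (35.0%) held TGACG, while 263 (55.7%) held CACGTG, the E-box of basic helix-loop-helix factors such as USF and MYC, and not a CRE or AP-1 element. Letters were searched on both strands, and TGACGTCA contains TGACG. For comparison, among all 32851 RefSeq windows of 300 bases, 1.79% held TGACGTCA, 20.8% held TGACG, 7.81% held TGANTCA and 7.15% held CACGTG. A match is a description of the letters and not proof of a bound factor. The E-box was added to the search after the letters of the sites had been seen.

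The deposited table has a property that limits what its scores can show. Every one of the 20364 ATF3 sites has a higher score on day 1 than on day 0 and a higher score on day 3 than on day 0, and the same holds for every entry of the ATF4, CEBPG and DDIT3 tables (6158, 9293 and 6365 entries). No site has all 3 scores under 0.145. A rise from day 0 is therefore a feature of how entries came to be listed, and only the level of the scores, the size of the rise and the order of days 1 and 3 were free to vary. Scores are 1 value per day, taken here as pooled over the libraries of that day, with no replicate error and no test.

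Promoter sites had a median score of 0.136 on day 0, 0.201 on day 1 and 0.218 on day 3, against 0.0956, 0.165 and 0.183 for sites outside promoters. The day 0 level differed by site length. Promoter sites of 11 bases (1982) had a median of 0.238, those of 12 bases (1770) 0.177 and those of 9 bases (5048) 0.118. Outside promoters the same 3 lengths had nearly one level, at 0.102, 0.0988 and 0.0939. A score over 1 on day 0 was listed for 471 promoter sites of 11 bases (23.8%), 327 of 12 bases (18.5%) and 73 of 9 bases (1.45%), and for 25 of the 11348 sites outside promoters (0.220%). The longer sites also sat closer to the start, with a median distance of 698 bases for 11 bases, 1068 for 12 bases and 1466 for 9 bases. Within 1 kb of a start the order of the lengths was the same, with day 0 medians of 0.478 for 11 bases, 0.353 for 12 bases and 0.131 for 9 bases.

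**Figure D1:**
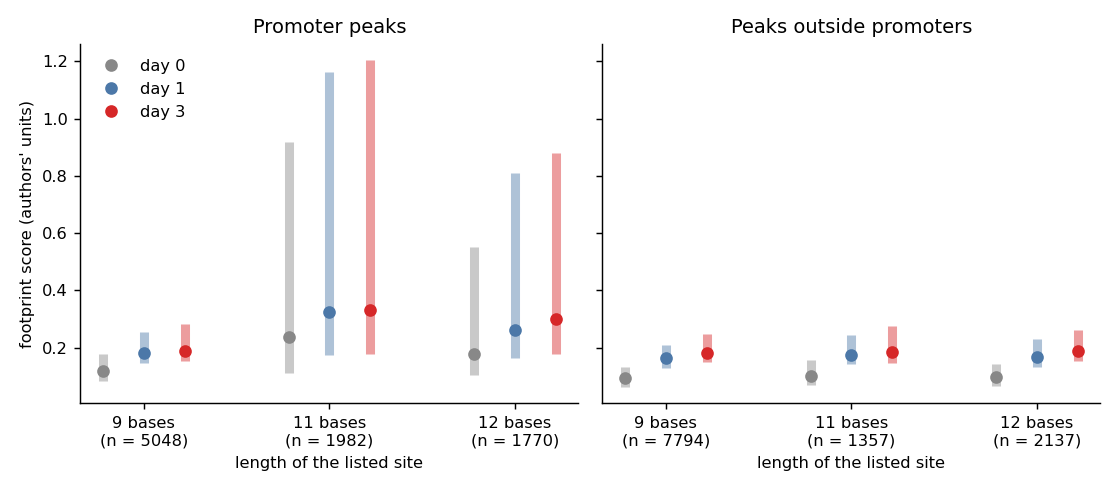
Footprint score (authors' units, vertical axis) of listed ATF3 sites by site length and day, in promoter peaks (left) and in peaks outside promoters (right). Points are medians and bars run from the lower to the upper quartile over sites. In promoters the upper quartile of 11-base sites was 0.918 on day 0, against 0.157 outside promoters.

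By letters, the median score of promoter sites holding TGACGTCA (174) went from 1.37 on day 0 to 1.71 on day 1 and 1.85 on day 3, and that of sites holding CACGTG (273) from 1.48 to 1.76 and 1.85. Sites holding TGANTCA (181) had lower scores, 0.263, 0.382 and 0.397. These sites lie inside the RefSeq windows, close to starts, and their levels are higher than those of the 7804 sites whose letters could not be read, with a day 0 median of 0.124. The score was higher on day 3 than on day 1 at 5093 promoter sites (57.4%) and at 7069 sites outside promoters (62.3%). By length the share was 61.9% for 12 bases, 57.1% for 9 bases and 54.5% for 11 bases. Few member sites overlapped an entry of another table, with 184 over an ATF4 site, 317 over a CEBPG site and 384 over a DDIT3 site. Of those 384, 337 were 12-base ATF3 sites.

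The 8 highest day 0 scores were at the promoters of Dusp7 (a phosphatase of ERK kinases), Opa3, Glyr1, Foxo3 (a forkhead factor of stress and survival), Usp36 and Tnrc6c. The top site, at -694 from the start of Dusp7, scored 3.58 on day 0, 3.76 on day 1 and 3.64 on day 3. Opa3 and Foxo3 are each named by a pair of neighbouring sites with one and the same day 0 score, 3.495 and 3.39. Of 378 pairs of neighbouring member sites no more than 50 bases apart, 89 had an identical day 0 score, so such neighbours are not independent measurements. The largest rises from day 0 to day 3 were at Gm26887 (0.952 to 3.06), Lrrc8a (2.21 to 4.25), Gm27401 (2.24 to 3.78), 1810055G02Rik (1.99 to 3.83), Dusp3 (1.07 to 2.87), Zfp869 (1.87 to 3.53), Sap30bp (1.43 to 2.99) and Gm23419 (0.887 to 2.42). Lrrc8a encodes an essential subunit of the volume-regulated anion channel, and the middle of its 12-base site lies at -50.5 from the annotated start. The Gm27401 site lies at the RefSeq start of another gene, Mfsd11, since the annotation names 1 gene for a whole peak. No entry fell, so no largest fall can be named.

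The sites at Lrrc8a (chr2:30237650-30237679) and 1810055G02Rik (chr19:3708276-3708305), both on the plus strand, and at Zfp869 (chr8:69717000-69717029, minus strand) are shown because their scores rose most among the sites with readable letters.
Lrrc8a, CRE palindrome: gcgtccggcCGTGACGTCACTtccggggcg
1810055G02Rik, TGACG: tcccgctttCGTGACGTCTTTccggggcag
Zfp869, AP-1 element: gagcaatggaaTTGAGTCATccacgcagct

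Promoter peaks that hold a listed site are stronger and longer than the other promoter peaks. Their median count was 917 per library, against 122, and their median length 3496 bases, against 1188. A site can therefore be far from the start of the gene that names its peak: 3898 of the 8867 sites lie within 1 kb of it, 1082 lie over 5 kb away, and 6897 carry a promoter annotation of their own. Most peaks (4661) hold 1 site, 1048 hold 2 and 512 hold 3 or more. The peak with the most sites (23) is assigned to Il3ra, and the next, 49626 bases long with 19 sites, is that of Fosb.

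Peak counts were compared between days by edgeR's quasi-likelihood test over all 151630 peaks, with Benjamini-Hochberg adjustment. The terms were the day and the deposited batch number. Each member site is listed with a score that rose from day 0, and such scores generally weigh the openness around a site. The scores are matched to the counted libraries by day alone. The listing itself can thus favour peaks that rose and leave other strong peaks among those without a site. The calls describe the listed peaks, and their contrast with other peaks is not a test. On day 3 against day 0, 1041 member peaks (16.7%) were higher and 398 (6.40%) lower, with 16.4% of all peaks higher and 7.39% lower. The share of member peaks that rose is near that of all peaks, while of the 33178 promoter peaks without a site 2925 (8.82%) were higher and 3136 (9.45%) lower. Among the 8296 strongest promoter peaks without a site, whose median count of 1208 is near that of the members, 180 (2.17%) were higher and 1530 (18.4%) lower. By site length, 19.4% of the 3942 peaks with a 9-base site and 18.1% of the 1520 with a 12-base site were higher, against 9.81% of the 1773 with an 11-base site. The median log2 change of member peaks on day 3 was -0.03, against 0.03 for all peaks.

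**Figure D2:**
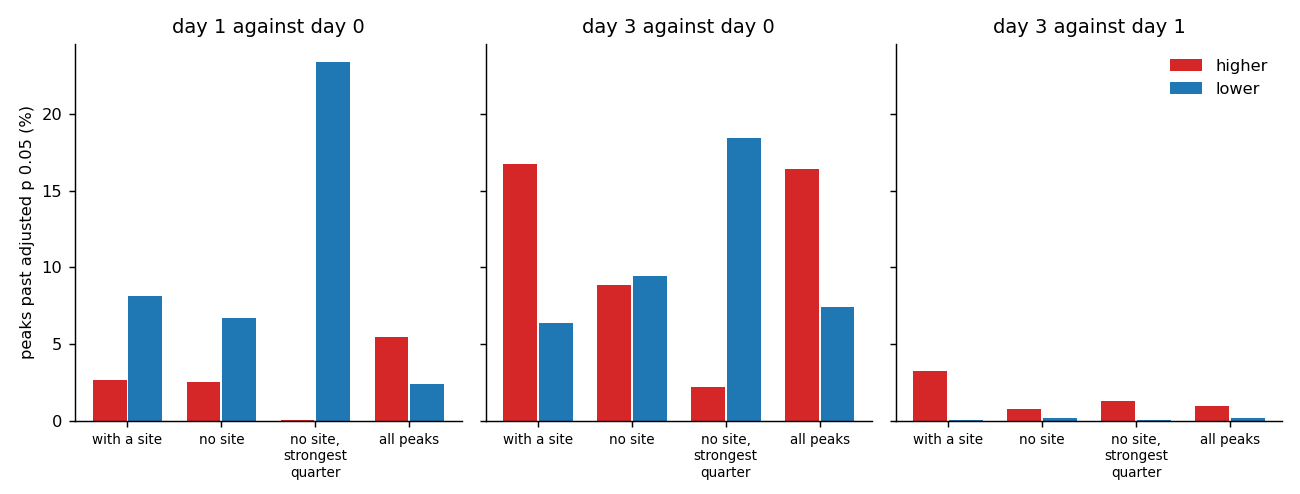
Share of peaks (percent, vertical axis from 0) higher (red) or lower (blue) at an edgeR adjusted p under 0.05, in promoter peaks with a listed ATF3 site, promoter peaks without one, the 8296 strongest of those, and all peaks, for 3 comparisons of days. On day 3 the members had more higher than lower calls (16.7% and 6.40%), and the strongest peaks without a site had the reverse (2.17% and 18.4%). Members were listed with scores that rose after the crush, so this contrast is not a test.

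On day 1 against day 0, 163 member peaks (2.62%) were higher and 507 (8.15%) lower, with 5.44% of all peaks higher and 2.4% lower. The day 1 libraries differ from the others in a way that moves with peak strength: the fraction of reads in peaks was 0.157 to 0.186 on day 1, 0.322 to 0.496 on day 0 and 0.173 to 0.456 on day 3, and all 3 day 1 libraries are of batch 2. With the trend with peak strength removed from each library, 154 member peaks were higher and 8 lower on day 1, with 1.35% of all peaks higher and 0.445% lower. With the fraction of reads in peaks as a term 19 were higher and 5 lower, with 0.564% and 0.0264% of all peaks. The part of library quality in the day 1 calls cannot be told apart from that of the day. On day 3, where both batches hold 3 libraries of day 0 and of day 3, there were 327 higher (5.26%) and 5 lower (0.0804%) calls in batch 1 alone. In batch 2 alone there were 1112 (17.9%) and 794 (12.8%). Of all peaks, 4.32% were higher and 0.411% lower in batch 1, and 16.8% and 12.5% in batch 2. Among member peaks, higher calls outnumbered lower ones under each alternative tried but 1. Without day 3 replicate 1 the 1065 lower calls exceeded the higher ones. By the authors' deposited table of comparisons, 890 member peaks (14.3%) were higher and 248 (3.99%) lower on day 3, with 11.8% and 8.56% of all peaks, and 75 (1.21%) and 60 (0.965%) on day 1, with 1.66% and 2.15% of all peaks. On day 3 against day 1, 201 member peaks (3.23%) were higher and 4 lower, with 0.987% of all peaks higher and 0.193% lower. Without the batch term edgeR made 0 calls in either direction on day 3 against day 1, with 1658 member peaks at an unadjusted p under 0.05, and the DESeq2 Wald test with batch called 632 higher and 19 lower. By that DESeq2 test 3.28% of all peaks were higher and 0.96% lower. Member peaks held 24.7 to 25.7% of a library's counts on day 0, 23.3 to 23.8% on day 1 and 22.4 to 26.5% on day 3.

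The member peaks with the largest rises on day 3 were short and weak, and most were named for predicted genes and pseudogenes. The peak named for Tmem132c, a transmembrane protein gene, had 1.06, 1.19 and 1.73 CPM (counts scaled to library size; lowest, median and highest of 6 libraries) on day 0, 2.58, 2.21 and 3.41 in the 3 libraries of day 1, and 5.15, 7.31 and 8.06 on day 3. The days do not overlap, and the day 3 peak rose by 2.40 on the log2 scale (SE 0.17, edgeR adjusted p = 4.84e-08). Slc26a9, an anion transporter gene, rose by 2.32 (edgeR adjusted p = 4.8e-07). The others were Gm43125, Gm8394, Gm23949, Gm13174, Olfr333-ps1 and Gm18907, between 2.31 and 2.51. The 8 named falls on day 3 were smaller. Of their peaks 7 were stronger, with mean counts of 282 to 2524 against 27.4 to 153.8 for the named rises, while Gm13553 had 93.1. The peak of Slc12a5, which encodes the neuronal chloride exporter KCC2, fell from a median of 81.3 CPM (73.1 to 90.2) on day 0 to 55.0 (38.9 to 63.3) on day 3, a log2 change of -0.64 (edgeR adjusted p = 8.7e-05). The other named falls were Ercc2, Cerkl, Zfhx2, A930001M01Rik, Nxnl2, Gm10637 and Gm13553, between -0.63 and -0.90. Cerkl and Nxnl2 are known from photoreceptors. On day 1 the 8 named rises lay between 1.32 and 1.57 and the 8 falls (Tmem9, Nxnl2, Acsl1, Pcgf5, BC002059, Idh1, Dynlt1a and 1500011B03Rik) between -0.62 and -0.72. Of these 16 day 1 calls, those of Gm24383 and Gm13174 alone held with each library left out in turn.

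RNA comes from other libraries than the scores, so noise of single libraries is not shared, but every listed site rose in score after the crush, and the listing is thus tied to the same injury that the RNA follows. Of the 3740 member genes tested, 342 (9.14%) were higher and 191 (5.11%) lower on day 1, with 5.93% of all 13737 genes higher and 5.45% lower (edgeR). On day 2, 729 (19.5%) were higher and 522 (14%) lower, with 14.8% of all genes higher and 14.5% lower. On day 3, 987 (26.4%) were higher and 746 (19.9%) lower, with 20.4% of all genes higher and 20.1% lower. On day 4, 977 (26.1%) were higher and 707 (18.9%) lower, with 19.8% of all genes higher and 19% lower. Lower calls were thus near the share of all genes on each day, and higher calls above it. The 8100 genes with a promoter peak but no listed site had 18.4% higher and 21.5% lower on day 3. Member genes had a higher level, with a median of 28.2 CPM against 20.2 for genes with a promoter peak and no site. Among genes with a mean of at least 20 CPM, 33.7% of the 2154 member genes and 25.3% of the 4066 genes without a site were higher on day 3, with 28.3% of all such genes. All 4 comparisons share the day 0 libraries. In bulk RNA, fewer cells of a type and less RNA per cell cannot be told apart.

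The letters of the site went with different shares. Of the 140 tested genes with a promoter site holding TGACGTCA, 50 (35.7%) were higher and 18 (12.9%) lower on day 3, and 20 (14.3%) were higher on day 1. Of the 119 with TGANTCA, 41 (34.5%) were higher and 15 (12.6%) lower on day 3. Of the 199 with CACGTG, 50 (25.1%) were higher and 29 (14.6%) lower on day 3, and on day 1 their 5.53% higher was near the 5.93% of all genes. The day 1 counts moved with the setting, from 11 to 33 for TGACGTCA and from 5 to 17 around 11 for CACGTG over the alternatives tried, while the day 3 counts stayed within 1.5 times. Median log2 changes on day 3 were 0.22, 0.22 and 0.12, against 0.03 for all genes. The letters alone were also found at genes with no listed site: 198 tested genes had TGACGTCA in their RefSeq window and no listed promoter site, and 48 of them (24.2%) were higher on day 3 and 24 (12.1%) lower. The same was so for 413 genes with TGANTCA (24.5% higher, 18.2% lower) and 735 with CACGTG (19.2% higher, 19.3% lower). Genes with a window of any kind, 10797 in number, had 20.6% higher and 19.7% lower. The groups differ in level, with median CPM of 31.1 for the 140 genes with TGACGTCA in a promoter site and 23.2 for the 198 with none listed. No test of these differences was run.

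**Figure D3:**
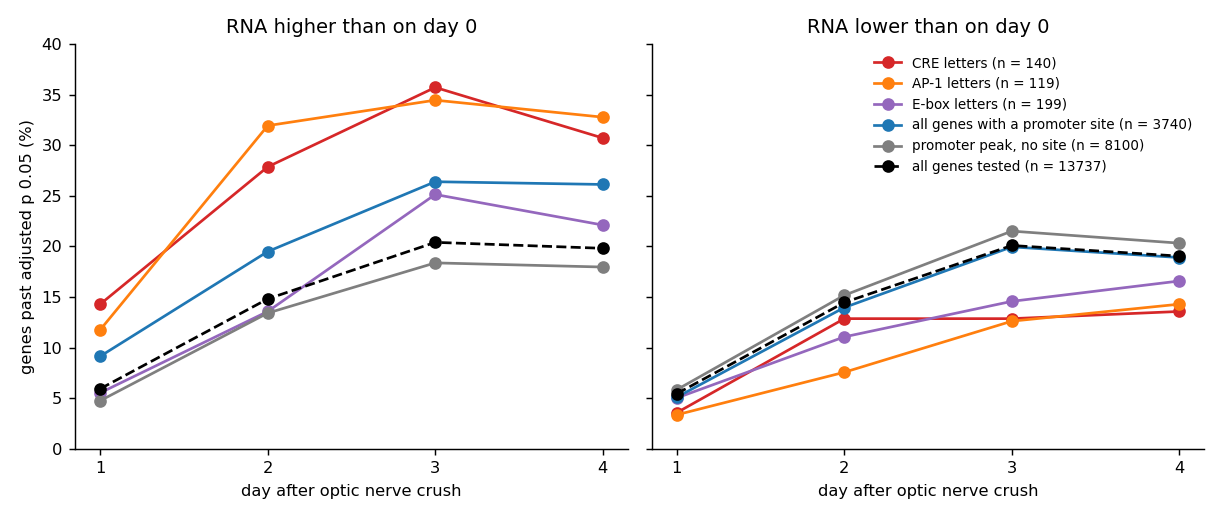
Share of genes (percent, vertical axis) with RNA higher (left) or lower (right) than on day 0 at an edgeR adjusted p under 0.05, by day after crush, for genes grouped by the letters of a promoter site, all genes with a promoter site, genes with a promoter peak but no site, and all genes tested. On day 3 genes with CRE or AP-1 letters had 35.7% and 34.5% higher, and all genes 20.4%.

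More sites per gene went with more higher calls on day 3: 24.6% of 2369 genes with 1 site, 28.1% of 804 with 2 and 31.6% of 567 with 3 or more, whose median levels also rose, at 25.1, 31.5 and 35.4 CPM. Lower calls also became more common, at 19.5%, 20.3% and 21.3%. Of all genes, 20.4% were higher and 20.1% lower on day 3. Ranked by the largest day 3 to day 0 score ratio of their sites (0.05 added to both), the lowest 935 genes had 25.9% higher calls, the next 24.5%, the next 25.6% and the top 935 29.6% on day 3. Their lower calls on day 3 were 19.25%, 18.3%, 21.0% and 21.3%. On day 1 the same groups had 8.77%, 6.31%, 8.56% and 12.9% higher calls, against 5.93% of all genes. Of the 629 genes with a site scoring over 1 before injury, 213 (33.9%) were higher and 89 (14.1%) lower on day 3, against 24.9% and 21.1% of the other 3111. On day 1 the order was the opposite, with 8.43% higher against 9.29%. None of these differences was tested. Those 629 genes had a median of 44.0 CPM, and the others 25.2.

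Peak and RNA calls were set side by side for each pair of a member peak and its gene. Where the peak was higher on day 3 (513 pairs), RNA was higher in 175 (34.1%) and lower in 98 (19.1%). Where the peak was lower (317 pairs), RNA was higher in 50 (15.8%) and lower in 101 (31.9%). Where the peak was not called (3485 pairs), RNA was higher in 915 (26.3%) and lower in 682 (19.6%). For promoter peaks without a site, RNA was higher in 21.9% and lower in 24.7% where the peak was higher (1269 pairs), and higher in 15.5% and lower in 34.7% where the peak was lower (2164 pairs). The lower peaks thus had near shares with and without a site, and the higher peaks differed, with no test of either. A gene with several promoter peaks counts once for each. Peaks without a site can include other peaks of member genes, so the same RNA can stand on both sides.

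Many bZIP genes have a listed site in a promoter peak of their own, which can lie far from the start. Of 19 ATF and CREB family genes, 11 have a listed promoter site, as do 6 of 10 AP-1 family genes and 6 of 10 CEBP and stress bZIP genes. Of all 13737 genes tested for RNA, 3740 have one, with no matching for peak length. The nearest site lay at 4011 bases from the start for Jund, -11307 for Atf6b, 4038 for Cebpa and 2409.5 for Cebpd. For Fos, Mafk and Atf4 it lay close, at -63, -15 and 236. On day 3, RNA rose for 7 of the 10 tested ATF and CREB genes with a site (median log2 change 1.12) and fell for none, against 11 higher and 1 lower of all 16 tested. Of the 5 tested AP-1 genes with a site, 2 rose and 1 fell, against 5 higher and 1 lower of all 9 tested. Of the 6 CEBP and stress genes with a site 3 rose, against 6 of all 10 tested. For all genes the median was 0.03, with 20.4% higher and 20.1% lower.

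Atf3 RNA was 4.44, 2.25 and 3.77 CPM in the day 0 libraries, 54.4, 44.0 and 49.8 on day 1, 223 and 217 on day 2, 450, 529 and 482 on day 3, and 544 and 569 on day 4. No later library comes near day 0, and the rise on day 3 was 141-fold (log2 7.14, SE 0.18, edgeR adjusted p = 4.88e-14). Its promoter peak (chr1:191216075-191217292) is small and holds 2 sites of 9 bases, 1774 and 1536 bases into the gene, with scores of 0.0720, 0.101 and 0.2695 and of 0.0707, 0.134 and 0.236 on days 0, 1 and 3. The peak had 2.09, 2.41 and 3.44 CPM (lowest, median, highest) on day 0 and 4.24, 5.27 and 7.46 on day 3. The 3 libraries of day 1 had 4.71, 3.03 and 4.31. Days 0 and 3 do not overlap, and the log2 change was 1.03 (edgeR adjusted p = 1.43e-05). Both sites scored under the median of all promoter sites on days 0 and 1 and above it (0.218) on day 3.

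Creb5, a CREB-type bZIP factor that can bind CREs with JUN, had listed sites and, on day 3, higher peaks and higher RNA. It has 10 listed sites in 2 promoter peaks. At the first promoter (chr6:53285426-53290823), the palindrome printed above scored 0.363 on day 0, 0.561 on day 1 and 1.15 on day 3. Its neighbour, whose letters hold no full CRE, scored 0.325, 0.657 and 1.63. At the second promoter (chr6:53570947-53584404), a 12-base site reached 1.36 from 0.500, and the AP-1 element printed above 1.13 from the same 0.500. The neighbour and that 12-base site also overlap entries of the ATF4, CEBPG and DDIT3 tables, and the palindrome and the AP-1 element overlap none. The first peak had 29.0, 32.8 and 44.6 CPM (lowest, median, highest) on day 0 and 37.2, 54.5 and 62.7 on day 3. The 3 libraries of day 1 had 30.8, 24.5 and 41.9. The days overlap, and the log2 change on day 3 was 0.59 (edgeR adjusted p = 0.00276). The second peak had 41.7, 47.7 and 61.5 CPM on day 0, and 60.4, 84.4 and 94.5 on day 3, with a log2 change of 0.78 (edgeR adjusted p = 0.000131). Creb5 RNA was 0.217, 0 and 1.09 CPM on day 0, 29.2, 37.8 and 37.8 on day 1, 49.1 and 48.1 on day 2, 26.1, 32.5 and 27.7 on day 3, and 23.3 and 21.1 on day 4. The RNA was thus highest on day 2, for which there are no scores. The scores were higher on day 3 than on day 1 at all 10 sites. The fold change on day 3 was 61.1 (log2 5.93, SE 0.46, edgeR adjusted p = 1.86e-08), and with single libraries left out it ranged from 39.9 (without day 0 replicate 2) to 279 (without day 0 replicate 3).

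**Figure D4:**
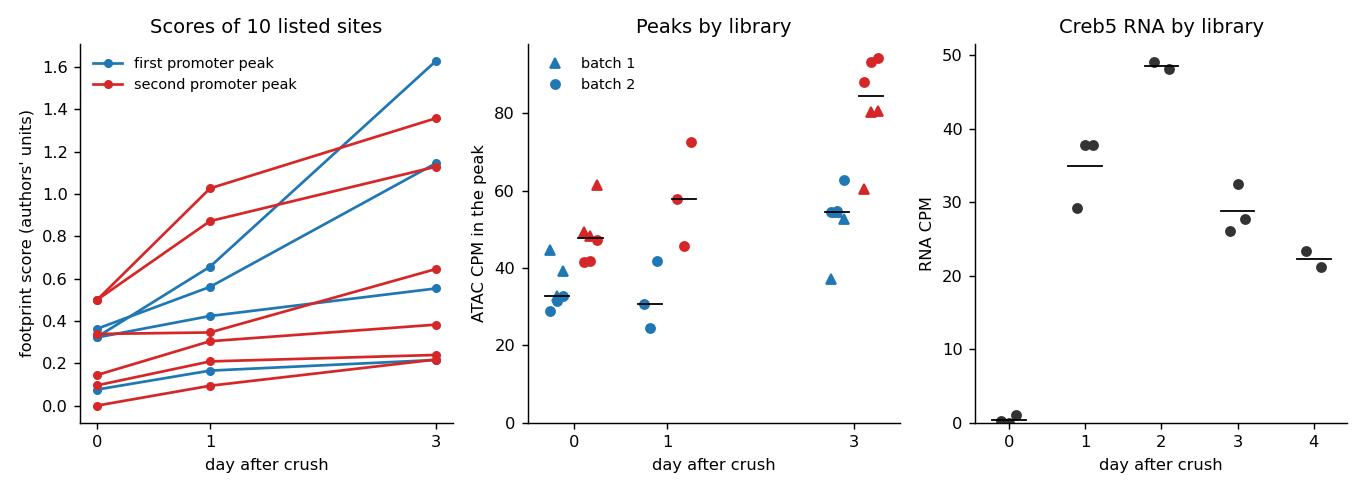
Creb5 by day after crush: footprint scores of its 10 listed sites (left, authors' units, 1 line a site), ATAC CPM of its 2 promoter peaks by library with medians (middle, triangles batch 1, circles batch 2), and RNA CPM by library with means (right). All 10 scores were higher on day 3 than on day 1, and RNA went from at most 1.09 CPM on day 0 to at least 21.1 on later days.

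Crem, which encodes activators and the cAMP-induced repressor ICER, has a 12-base site at -93.5 that scored 0.498, 0.750 and 1.13. Its RNA was 7.63, 13.4 and 15.2 CPM on day 0, 57.9, 45.7 and 44.95 on day 1, and 88.7, 73.8 and 62.8 on day 3, a 6.18-fold rise (edgeR adjusted p = 7.92e-08), while its peak was not called (log2 0.18, edgeR adjusted p = 0.32). With the trend with peak strength removed the peak passed (log2 0.28, edgeR adjusted p = 0.0166). Among others, those of Fos (0.48), Dusp1 (0.61), Psat1 (0.38) and Hspa5 (0.31) passed too. The peaks of Creb1 (0.0027), Atf1 (0.031) and Atf4 (0.086) did not pass in this setting either. Calls were more common in it on day 3, with 1668 member peaks higher and 315 lower, against 1041 and 398 without that step. Of all peaks, 15.07% were higher and 10.08% lower with the trend removed. Atf4, the main effector of the integrated stress response, has an 11-base site 236 bases into the gene that scored 2.37, 2.78 and 3.17, and its RNA rose 3.13-fold on day 3 (edgeR adjusted p = 1.61e-07). Atf1 and Creb3l2 carry high scores that were close on days 0 and 3 and higher on day 1. On days 0, 1 and 3 they were 2.12, 2.57 and 2.21 at the Atf1 E-box and 2.48, 2.805 and 2.50 at Creb3l2. A neighbouring Atf1 site holding TGACG scored 2.12, 2.53 and 2.17, so these scores cannot be assigned to the E-box alone. RNA of Atf1 and Creb3l2 rose by 0.93 and 1.32 on the log2 scale. RNA of Creb1, the constitutive CRE activator, rose by 0.33, and its call was lost with single libraries left out (largest edgeR adjusted p = 0.0639). RNA of Jdp2, Atf6b and Atf7 was not called on day 3.

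In the AP-1 family Fos, an immediate early gene, was the only tested member with a site that fell on day 3. It has the printed CRE-like site at -63 with scores of 2.24, 3.20 and 3.05. Its RNA was 48.0, 51.6 and 98.5 CPM on day 0, 44.8, 57.5 and 72.3 on day 1, 63.2 and 64.0 on day 2, 41.2, 24.1 and 28.1 on day 3, and 62.1 and 58.4 on day 4. Day 3 alone lies wholly under day 0, with a log2 change of -1.09 (edgeR adjusted p = 0.00182). Fosb, with 19 sites, was at 25.3, 16.9 and 61.8 CPM on day 0 and 26.5, 12.1 and 15.3 on day 3, which overlap, and was not called (log2 -0.95, edgeR adjusted p = 0.0517). Jund RNA rose by 0.79 and Mafk, a small MAF partner with 9 sites, by 1.67. The peak of Fosl1, whose RNA was not measured in the table, rose by 0.78 with 6 day 3 libraries between 15.7 and 30.9 CPM, all above the 11.3 to 14.3 of day 0. Among CEBP and stress genes, RNA of Cebpb (2.20), Bach1 (1.5) and Xbp1 (1.05) rose on day 3. The Cebpd peak rose by 0.99 while its RNA, between 0.972 and 2.88 CPM on days 0 and 3, was not called.

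**Figure D5:**
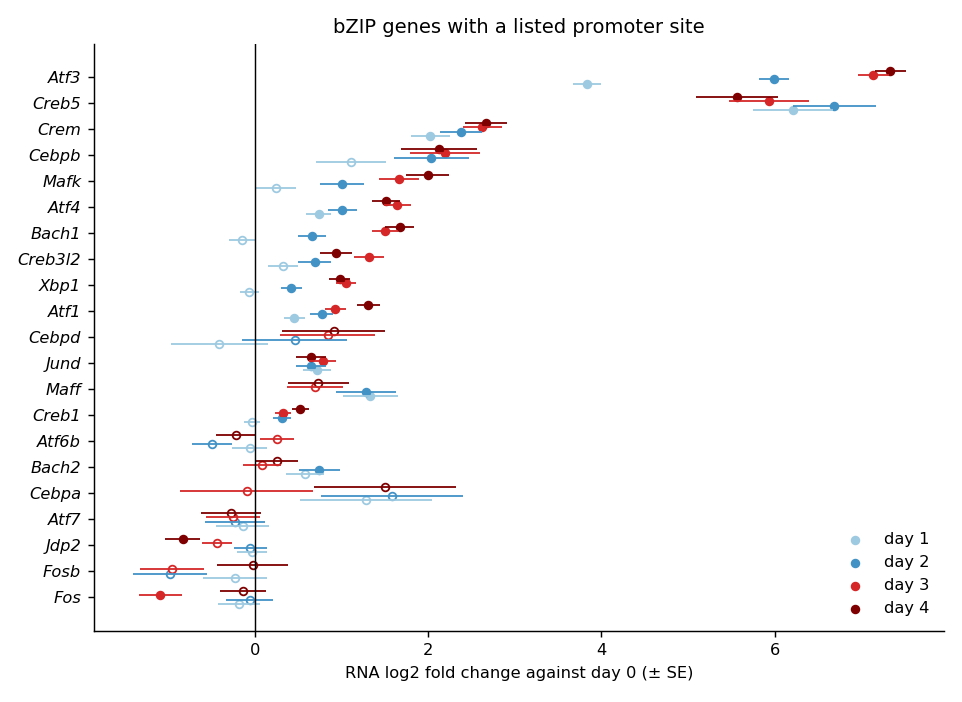
RNA log2 fold change against day 0 (horizontal axis, bars are standard errors) on days 1 to 4 for the 21 tested bZIP genes with a listed promoter site. Filled points passed an edgeR adjusted p of 0.05 and open points did not. On day 3 Atf3 (7.14) and Creb5 (5.93) were the highest and Fos (-1.09) the lowest.

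Among the other member genes, those with the largest RNA rises on day 3 after Atf3 were Hrk (6.28 on the log2 scale), Creb5, Itga5 (5.67), Arid5a (5.57), Crabp2 (5.51), Liph (5.43), Cdkn1a (5.24), Clic4 (4.72) and Zcchc12 (4.61). Hrk, a BH3-only killer protein of neurons, was at 2.87, 2.20 and 1.79 CPM on day 0, 39.4, 46.2 and 49.2 on day 1 and 156, 206 and 163 on day 3. Its 12-base site at the promoter scored only 0.141, 0.219 and 0.199, and its peak was not called (log2 -0.04). Cdkn1a, the cell cycle inhibitor p21, was at 14.4, 13.1 and 16.9 CPM on day 0 and 470, 622 and 589 on day 3. Folds of genes near 0 CPM on day 0 moved with single day 0 libraries. Itga5, a fibronectin receptor subunit, rose 50.9-fold and 91.3-fold without day 0 replicate 2. Without that replicate Liph went from 43.1-fold to 78.8-fold and Crabp2 from 45.6-fold to 72.1-fold, and Crabp2 was at 30.0-fold without replicate 3. Clic4 went from 26.4-fold to 84.3-fold without day 0 replicate 1. Crabp2 carries retinoic acid and Arid5a binds RNA. The largest falls were Gbp3 (-5.81), Mme (-4.37), Sptssb (-4.32), Dnah6 (-3.98), Uba7 (-3.52), Tppp3 (-3.50), Fzd7 (-3.22), Pcdh18 (-3.08), Pcdhgc4 (-3.05) and Necab2 (-2.96). Tppp3, a tubulin-binding protein, went from 445, 444 and 481 CPM on day 0 to 39.6, 38.9 and 42.9 on day 3. Gbp3 and Uba7 are interferon-induced genes and were uneven before injury. Gbp3 was at 0.649, 3.19 and 63.3 CPM on day 0, 92.5, 72.98 and 30.7 on day 1, and 0.629, 0.480 and 0.0835 on day 3. Without day 0 replicate 3 the day 3 level was 0.198 of day 0 in place of 0.0178 for Gbp3, and 0.393 in place of 0.0875 for Uba7.

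Of the 25 integrated stress response genes, all tested, 23 rose on day 3 and none fell. The 7 with a listed promoter site all rose (median log2 2.73, against 2.50 for the whole list). Psat1, an enzyme of serine synthesis, rose by 3.53, with a 9-base site at its start that scored 0.930, 1.60 and 2.08. The amino acid transporter genes Slc3a2 and Slc7a5 rose by 2.73 and 3.36, with distant or low-scoring sites of at most 0.370 on day 3. Of 8 tested axon injury genes with a site, 5 rose and 1 fell on day 3 (median log2 1.37), and of all 24 tested 19 rose and 3 fell (2.24). Sox11, a regeneration-linked factor, was at 38.5, 41.9 and 45.5 CPM on day 0 and 913, 955 and 858 on day 3 (log2 4.43, SE 0.09, edgeR adjusted p = 5.73e-15). Its promoter site scored 0.285, 0.435 and 0.576, and its peak rose by 0.53. Klf6 rose by 1.88, with 6 sites.

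Of the 8 cell death genes with a site, 6 rose on day 3 and none fell, as did 12 and none of all 16 on the list. Among those with a site were Bcl2l11 (3.90) and Bbc3 (1.98), both BH3-only genes like Hrk. In the cAMP and activity list the directions were mixed, with 5 higher and 5 lower of the 15 with a site and 8 higher and 6 lower of all 25 tested. Vgf, a secreted neuropeptide precursor, rose by 4.13 and the ERK phosphatase Dusp1, with 14 sites, by 1.59. Of the 7 synapse and excitability genes with a site all fell on day 3 (median -0.77), as did 18 of all 19 tested. The axonal potassium channel Kcna2 went from 1552, 1476 and 1507 CPM to 521, 442 and 443 (log2 -1.69), with an uncalled peak. Sites were thus listed both at genes that rose and at genes that fell.

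Of the 4 ER folding genes with a site, 3 rose and 1 fell (median log2 0.97), while of all 21 tested 6 rose and 4 fell (-0.12). For all genes, 20.4% were higher and 20.1% lower on day 3, the background to the counts of each list. Hspa5, the ER chaperone BiP, carries the printed AP-1 element and an 11-base neighbour, both at 2.71 on day 0 and at 3.19 and 3.60 on day 3, and its RNA was 320, 426 and 481 CPM on day 0 and 1196, 1205 and 1156 on day 3 (log2 1.53). Hsp90b1 fell by 0.32, a call lost with a library left out (largest edgeR adjusted p = 0.0732). Of 10 RNA processing and translation genes with a site, 7 rose and none fell, with Eif4ebp1 (3.64) and Eif1 (1.5) among them. Of all 20 on that list 13 rose and 2 fell. Of the proteasome subunit genes with a site, Psmd11 rose by 0.49 (edgeR adjusted p = 0.0011) and Psmd12 by 0.27 (edgeR adjusted p = 0.0246), and the call of Psmd12 was lost with a library left out (largest edgeR adjusted p = 0.115). Of all 19 tested cell cycle and repair genes 5 rose and 2 fell, and of the 5 with a site Ccnd2 rose (4.20) and Brca1 fell by 0.94, a call lost with a library left out (largest edgeR adjusted p = 0.1). The single mitochondrial gene with a site, Cycs, was not called (-0.58, edgeR adjusted p = 0.0626), at a palindrome that scored 2.36 and 2.57 on days 0 and 3.

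Total counts per library were 19024286 to 27561352 for RNA and 20006724 to 72579102 for ATAC. RGC markers were high in every RNA library, with a summed level of 4800 to 8489 CPM over 8 genes. It was 7940 to 8489 on day 0 and 4800 to 5117 on day 4. Markers of other retinal cells were present: rods at 219 to 1016 CPM over 6 genes, and microglia and macrophages at 13.4 to 124 over 6, with 17.96 to 40.3 on day 0, 30.9 to 124 on day 1, 77.5 to 90.5 on day 2, 13.4 to 21.4 on day 3 and 63.3 to 97.4 on day 4. Days 2 and 4 lie wholly above day 0. Amacrine and horizontal markers summed to 60.5 to 261 CPM on day 0 and 301 to 383 on day 2, and Mueller glia and astrocyte markers to 163 to 184 on day 0 and 197 to 206 on day 4. No marker measured was at 0 in any library. The part of these cells in the changes above was not tested.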

How the data were processed

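ATAC-seq and RNA-seq of sorted RGCs were analysed from deposited tables. The authors deposited read counts per peak and per gene, made per the submitters' processing notes with Bowtie2, MACS2, featureCounts, STAR and HTSeq among other tools on mm10 (GRCm38), and without versions in those notes. The authors deposited footprint scores per site and day. No label or header names the footprint tool. The deposited library table gives the fraction of reads in peaks, the duplicate fraction and the transcription start site enrichment as a ratio, and the deposited comparison table of the authors gives log2 fold changes and p-values per peak. For tests of counts, edgeR 4.0.16 was run in R 4.3.3 (TMM scaling, filterByExpr, quasi-likelihood test, Benjamini-Hochberg adjustment over all features, threshold 0.05), with day and batch as terms for peaks and day for genes, and all libraries in 1 fit. Alternatives used DESeq2 1.42.0, other scalings and filters, single batches and left-out libraries. The fits were tested on simulated data. CPM use TMM-scaled library sizes. Total counts per library ranged from 20006724 to 72579102 for ATAC and from 19024286 to 27561352 for RNA. Of 15 RNA samples in the labels, 13 have counts used here, and day 2 replicate 3 and day 4 replicate 1 are not analysed here. RNA libraries do not mark strand, so overlapping and antisense genes cannot be told apart.

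Members and gene lists were chosen with earlier results of these data known. Named peaks are the 8 largest rises and 8 largest falls on days 1 and 3 among called member peaks whose libraries do not overlap those of day 0 and whose mean count reaches 20. Named genes are the 10 largest RNA rises and 10 largest falls on day 3 with a mean of at least 5 CPM, all bZIP family members, and up to 4 genes of each list. Named sites have the 8 highest day 0 scores or the 8 largest rises. The genes of a site are those the deposited annotation gives its peak. Results for 1 gene of these lists are not reported here.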

Additional observations from a re-analysis of the deposited data

Results flagged for a closer look

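Of 62 groups of libraries of named peaks, 5 held a library that stood apart from the rest of its day by Dixon's criterion, which chance alone meets in about 1 group in 20. The Nxnl2 peak had 43.5 CPM in day 0 replicate 1, and the Idh1 peak 102 CPM in day 0 replicate 4. Day 3 replicate 3 was highest at the Gm8394 peak (2.39 CPM) and the Gm23949 peak (4.69 CPM), and day 3 replicate 2 was lowest at the Gm13553 peak (1.26 CPM).

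At 5 named peaks the change from day 0 differed between days 3 and 1. The log2 difference of day 3 from day 1 was 1.54 at Gm8394, 1.32 at Gm18907, 1.28 at Tmem132c and 1.26 at Slc26a9, and -0.85 at Gm24383. These differences passed the edgeR test with all libraries, and each lost its call when a library was left out.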

How the results depend on the processing

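Peak calls on day 1 depended most on the setting. For ATF3 promoter peaks, day 1 against day 0, higher calls numbered 562 in batch 2 alone, 19 with the fraction of reads in peaks as a term, 616 with library size only, 515 with only the groups compared and 96 for peaks within 1 kb of the start, and lower calls 1927 with the DESeq2 Wald test, 1261 with DESeq2 size factors, 2384 in batch 2 alone, 5 with the fraction of reads in peaks, 2974 with only the groups compared and 8 with the trend removed. Without the batch term edgeR made 0 calls in either direction on day 1 against day 0 and on day 3 against day 1, with 2371 and 1658 member peaks at an unadjusted p under 0.05. The DESeq2 Wald test with batch called 190 higher on day 1, and 632 higher and 19 lower on day 3 against day 1. With single libraries left out, day 1 gave 8 to 262 higher and 2 to 1794 lower.

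For day 3 against day 0, higher calls were 327 in batch 1, 465 without the batch term and 1668 with the trend removed, and lower calls 751 (DESeq2 Wald test), 643 (DESeq2 size factors), 5 (batch 1), 794 (batch 2), 123 (fraction of reads in peaks), 730 (library size only) and 89 (no batch term), with 880 to 1214 and 219 to 1065 with single libraries left out. Of all peaks, 7.16% were higher and 2.38% lower without the batch term, and 15.3% and 10.4% by the DESeq2 Wald test. For day 3 against day 1, higher calls were 1119 (batch 2), 463 (fraction of reads in peaks) and 737 (only the groups compared), and lower calls 96, 127, 121 (library size only), 74 and 132 (trend removed). Of all peaks, 6.30% were higher and 3.95% lower in batch 2, and 5.435% and 4.04% with only the groups compared. With single libraries left out the calls of member peaks were 0 to 623 and 0 to 20, and the 0 higher calls came without day 1 replicate 1, with 1436 at an unadjusted p under 0.05, and the 0 lower calls without day 0 replicate 3, with 1941.

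The replicate numbers were not taken to pair the libraries. Correlations of same-numbered libraries ran from -0.391 to 0.211 for ATAC and from -0.126 to 0.0676 for RNA. Those of differently numbered libraries ran from -0.5 to 0.521 and from -0.0846 to 0.0866. With so few libraries a day, these correlations cannot exclude a pairing. With the number as a replicate block in place of batch there were 150 lower calls on day 1, and 130 higher and 1 lower on day 3 against day 1. Of all peaks, 0.803% were lower on day 1, and 0.671% higher and 0.0481% lower on day 3 against day 1.

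The median log2 change of member peaks changed sign on day 1 with the trend removed (0.0489). For ATF3 promoter peaks, day 3 against day 0, median log2 did so with the fraction of reads in peaks (0.0140), library size only (0.0107) and the trend removed (0.0739), and it ran from -0.0860 without day 3 replicate 1 to 0.0037 without day 3 replicate 4. The day 3 change of the C130026I21Rik peak was -0.0015 in batch 1 and the day 1 change of the Gm7281 peak was -0.16 with the fraction of reads in peaks. RNA calls moved less: on day 1, 328 lower (DESeq2 Wald test), 112 (library size only) and 90 (only the groups compared), and 182 higher with only the groups compared. Of all genes, 9.11%, 3.29% and 3.05% were lower in these settings, and 3.05% higher with only the groups compared. With single libraries left out, higher RNA calls of member genes were 220 to 336 on day 1, 467 to 725 on day 2, 846 to 977 on day 3 and 752 to 965 on day 4, and lower calls 110 to 218, 320 to 579, 661 to 768 and 561 to 716. No named gene's RNA changed direction under any alternative run.

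For the footprint scores of ATF3 promoter sites, day 1 against day 0, the median rise of 0.0722 was 0.00503 when centred on all ATF3 sites, 0.0757 with 1 site per peak and 0.0900 for sites above the median mean score, and for the footprint scores of ATF3 promoter sites, day 3 against day 0, that of 0.0864 was -0.00167, 0.0891 and 0.119. The cause of these changes was not tested. Scores have no replicates, so their precision is unknown.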
